A study of Mus musculus with 60 samples.

Results

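In the dorsal root ganglia of mice, 1205 acetylated stretches of open chromatin were listed after both control surgeries and after neither axotomy. They came from a merge of the 4 ATAC peak lists of the series, which gave 368411 open regions, of which 53667 overlapped an H3K9ac or H3K27ac peak of a control. A region was chosen when it held an ATAC peak of sham sciatic surgery (Sham) and of laminectomy (Lam), none of sciatic nerve axotomy (SNA) or of spinal dorsal column axotomy (DCA), and at least 1 bp of a control acetylation peak. The chosen regions made up 2.25% of the acetylated open regions. They are called control-only acetylated sites here, because a missing peak does not show that a site had closed. Control-only refers to the ATAC peak and not to acetylation, since 1014 of the sites (84.1%) had an acetylation peak in an axotomy list. They were chosen by their ATAC peaks in all 4 lists and by their acetylation peaks in the controls, so both are described without a test.

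All animals were C57BL/6 mice aged 6 to 8 weeks, and the L4-L6 ganglia were taken 24 h after surgery. Sham was the control of SNA and Lam the control of DCA, and neither control had an axotomy. For each of 3 histone marks and 4 surgeries there were 2 ChIP samples and 2 inputs, every one pooled from 10 mice. ATAC had 3 samples per surgery, each of a single mouse, and all samples together numbered 60. The authors deposited 1 list per assay and surgery with replicates pooled, so there is no replicate error, no value between conditions carries a test, and sequencing depth is unknown.

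Sensory neurons of these ganglia send a peripheral branch into the sciatic nerve and a central branch into the dorsal columns. The peripheral branch can regrow after a cut, whereas the central branch regrows poorly. ATAC-seq marks DNA that a transposase can enter. H3K9ac and H3K27ac are placed on histone H3 by acetyltransferases and removed by deacetylases, and both are typical of active promoters and enhancers. H3K27me3 is placed by Polycomb complexes and is typical of repressed genes.

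Whole ganglia hold neurons, glia and other cells, so fewer cells of a type and less signal per cell cannot be told apart. Within 1 kb of their gene starts, 10 of 11 sensory neuron markers had an ATAC peak in Sham and 11 of 11 in Lam. For satellite glia and Schwann cells it was 7 of 10 in both controls, for macrophages 4 and 5 of 8, and for muscle 2 and 1 of 3. H3K27ac gave another picture at the same starts, with 2 and 4 of 11 neuronal markers, 8 and 10 of 10 glial markers, 0 and 1 of 8 macrophage markers and 0 of 3 muscle markers in Sham and Lam.

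The sequences below are promoters that control-only sites overlapped, shown because the sites there are named by strength or mark, or, for Gsn, because the gene held 3 sites. Sites covered the 300-base window of Calcrl, Pfkm, Gsn and Aatk whole, 222 bases of that of Fam174c and 288 of that of Agrn, so the farthest upstream bases of these last 2 lie outside the site. The printed stretches are the 250 bases before the gene start from RefSeq (GRCm38.p6), read 5′ to 3′ on the gene's strand, with capitals for matches to any of the motifs searched further below. Calcrl encodes a receptor for calcitonin gene-related peptide, Fam174c a membrane protein and Agrn agrin, an organiser of synapses. Pfkm encodes phosphofructokinase of muscle, Gsn gelsolin, which severs actin filaments, and Aatk a kinase of the nervous system. Aatk was picked after its values were seen, since its site had the most ATAC reads in Lam.
Calcrl (chr2:84425267-84425516, minus strand): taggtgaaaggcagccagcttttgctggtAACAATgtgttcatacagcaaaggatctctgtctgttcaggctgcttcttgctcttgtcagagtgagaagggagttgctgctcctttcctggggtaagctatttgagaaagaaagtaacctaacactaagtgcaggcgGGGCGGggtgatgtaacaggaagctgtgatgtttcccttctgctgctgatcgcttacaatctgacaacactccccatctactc
Fam174c (chr10:80172694-80172943, plus strand): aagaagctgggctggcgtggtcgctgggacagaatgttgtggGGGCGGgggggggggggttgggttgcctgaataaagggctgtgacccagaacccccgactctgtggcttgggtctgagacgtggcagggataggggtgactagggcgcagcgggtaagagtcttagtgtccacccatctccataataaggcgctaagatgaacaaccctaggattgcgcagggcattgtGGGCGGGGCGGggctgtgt
Agrn (chr4:156186260-156186509, minus strand): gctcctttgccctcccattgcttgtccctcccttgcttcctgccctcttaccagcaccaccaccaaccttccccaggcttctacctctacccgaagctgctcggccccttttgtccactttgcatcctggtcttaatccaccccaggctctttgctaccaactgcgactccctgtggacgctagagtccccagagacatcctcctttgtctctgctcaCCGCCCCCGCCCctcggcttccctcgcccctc
Pfkm (chr15:98111810-98112059, plus strand): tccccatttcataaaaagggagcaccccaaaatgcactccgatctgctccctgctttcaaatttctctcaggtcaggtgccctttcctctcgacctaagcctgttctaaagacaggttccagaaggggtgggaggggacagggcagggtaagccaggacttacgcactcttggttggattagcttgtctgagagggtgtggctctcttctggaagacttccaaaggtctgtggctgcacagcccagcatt
Gsn (chr2:35266494-35266743, plus strand): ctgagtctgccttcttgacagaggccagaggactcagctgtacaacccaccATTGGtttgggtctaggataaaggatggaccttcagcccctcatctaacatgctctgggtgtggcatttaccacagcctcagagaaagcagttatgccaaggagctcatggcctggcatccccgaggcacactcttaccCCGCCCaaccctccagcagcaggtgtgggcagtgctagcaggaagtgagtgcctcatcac
Aatk (chr11:120017155-120017404, minus strand): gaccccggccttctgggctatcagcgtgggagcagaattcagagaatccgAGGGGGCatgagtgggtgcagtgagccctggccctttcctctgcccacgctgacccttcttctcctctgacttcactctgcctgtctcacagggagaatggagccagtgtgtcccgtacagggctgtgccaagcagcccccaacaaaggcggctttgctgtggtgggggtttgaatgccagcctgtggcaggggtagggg

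The Calcrl stretch held 1 GC box and 1 SOX match and had 48.4% G and C with 3 CpG. The Fam174c stretch held 3 GC boxes, at 61.2% G and C with 11 CpG. Of these boxes 2 shared a base, and the one farthest upstream lay outside the site. The Agrn stretch held 2 adjoining GC boxes on the opposite strand at 60.8% G and C with 8 CpG. The Pfkm stretch held no match, at 52.8% G and C with 3 CpG. The Gsn stretch held 1 GC box and 1 CCAAT box with 2 CpG, and the Aatk stretch held 1 match to the CTCF core with 6 CpG.

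The ATAC peaks of the control-only sites were weak. The number of reads at a summit was recovered from the deposited fold enrichment and p, and it ranged from 27 to 88 in Sham with a median of 37, and from 28 to 100 in Lam with a median of 39. The fewest reads of any listed peak were 27 in Sham and 28 in Lam, and the uniform background of those lists was 16.2 and 17.2 reads. Acetylated regions found in all 4 ATAC lists had medians of 57 and 60 reads. Acetylated regions found in 1 control and 1 axotomy list had medians of 37 reads in Sham and 39 in Lam, the same as the control-only sites. The fold enrichment over background had a median of 1.92 in Sham and 1.87 in Lam for the control-only sites, against 2.79 and 2.69 for the regions in all 4 lists. A −log10 q of at least 5 was reached by 59 control-only sites in Sham, by 63 in Lam and by 6 in both. The lowest −log10 q of a listed ATAC peak was 0.677 in Sham and 0.556 in Lam. Some sites named below were close to that in Lam, among them those in Nfkb1 (0.560), Trpv1 (0.587) and Egr2 (0.681). When a −log10 q of at least 5 was required in all 4 ATAC lists before the merge, 123 regions met the rule. Axotomy peaks below that q were then left out too, so these regions can hold a weaker listed axotomy peak.

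**Figure D1:**
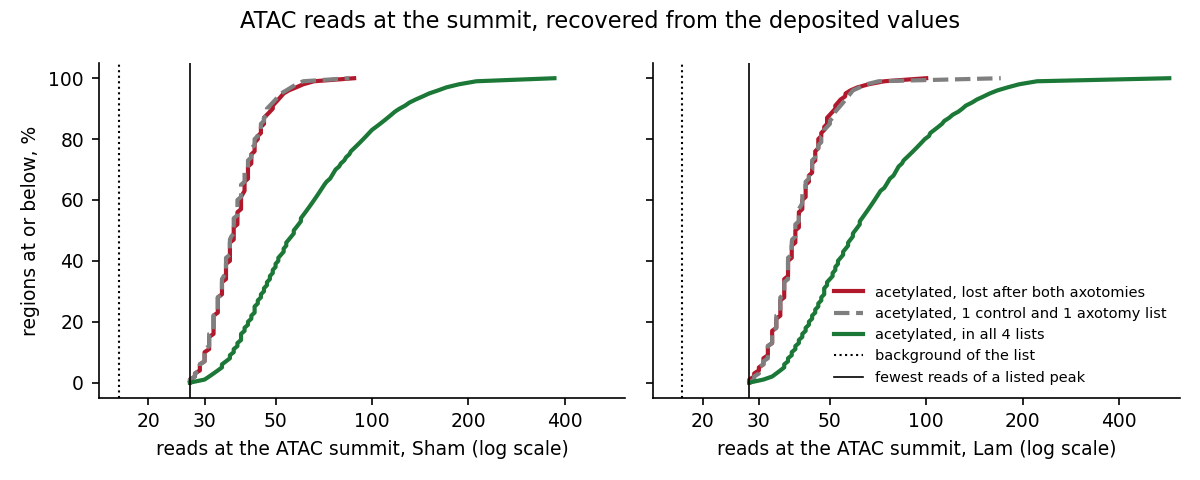
Cumulative share of regions (%) by reads at the ATAC summit (log axis) in Sham (left) and Lam (right), for the control-only acetylated sites, acetylated regions of 1 control and 1 axotomy list, and acetylated regions of all 4 lists. The first 2 curves run together close to the fewest reads of a listed peak (27 in Sham, 28 in Lam), and the regions of all 4 lists lie to the right.

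Absence from an axotomy list has to be read with the lists' own limits. The peak names carry a rank, and 95.5% to 98.2% of the first 50000 ranks were listed in the ATAC lists, but only 54.6% to 63.8% of the ranks after 100000 and up to 200000. The fewest reads of a listed peak were 29 in SNA and 30 in DCA. The nearest axotomy peak lay within 1 kb of 594 of the 1205 sites (49.3%, 95% Wilson interval 46.5% to 52.1%). It lay within 500 bp of 377 and within 100 bp of 71. At the edge of the rule, the 3 closest sites had an axotomy peak at 0, 0 and 2 bp from them, with no base shared. Regions of both controls that were left out for an axotomy peak hold that peak whole after the merge. Their fewest bases under axotomy peaks, 162, 165 and 167, thus reflect peak width. The bases such peaks shared with a control peak were not measured. On the acetylation side, the members overlapped by the fewest bases had 1, 1 and 2 bp under a control acetylation peak, and the nearest regions left out had a peak at 7, 8 and 11 bp.

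The control-only pattern was the least frequent of the 6 ways to be in exactly 2 ATAC lists. It held 9653 regions, against 15699 in SNA and DCA alone and 10852 to 13717 in the 4 pairs of a control and an axotomy. The lists of SNA and DCA were also the longest, with 174605 and 164365 peaks against 153556 in Sham and 158160 in Lam. Acetylation in a control was seen for 12.5% of the control-only regions (11.8% to 13.2%), for 13.5% of those in SNA and DCA alone (13.0% to 14.1%), and for 12% to 13.5% of those in a control and an axotomy. Regions in all 4 lists were acetylated in 50.9%. The acetylated share of the control-only regions thus lay within the range of the other 5 pairs of lists.

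**Figure D2:**
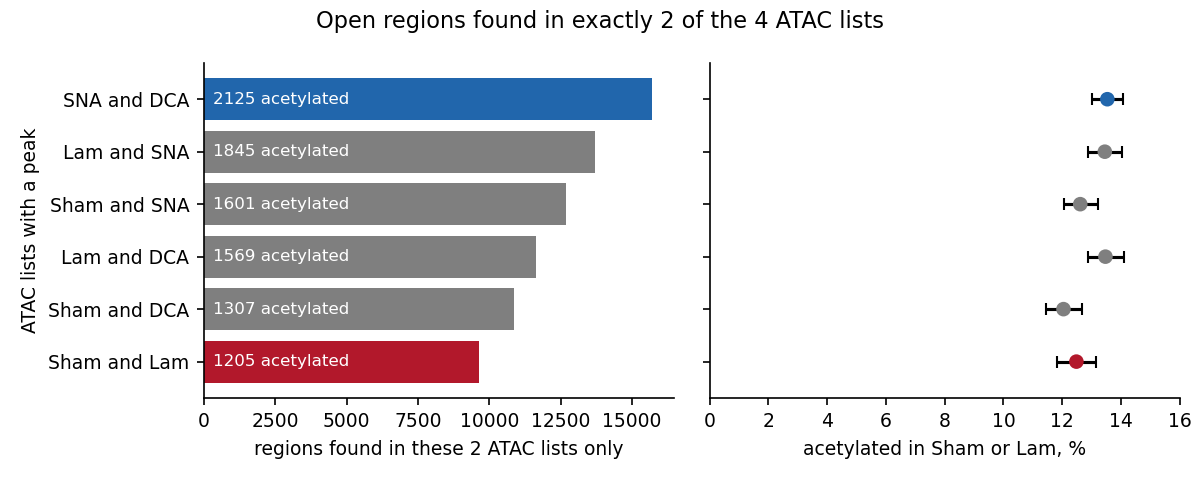
Regions found in exactly 2 ATAC lists, by pair of lists: number of regions (left, with the number acetylated in Sham or Lam written in the bars) and acetylated share in % with 95% Wilson intervals (right). Sham and Lam gave the smallest number, and the 6 shares lie between 12% and 13.5%.

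The rule required the Sham and Lam peaks of a site to lie in the same merged region. The median distance between the Sham and the Lam summit was 83 bp, with 421 of 1205 sites (34.9%) at 50 bp or less. For control-only regions without acetylation it was 90 bp, with 34.4% at 50 bp or less, and for acetylated regions of all 4 lists it was 47 bp and 51.6%. The sites had a median width of 571 bp, ranging from 203 to 1699 bp. It was 602 bp for acetylated regions of SNA and DCA alone and 588 bp for those of a control and an axotomy. Acetylated regions of all 4 lists had 1201 bp, and merging more lists can widen a region. They were spread over all autosomes, from 30 on chromosome 13 to 108 on chromosome 4, with 1 on X and 0 on Y. The ATAC lists held few peaks on X at all, 0.274% to 0.317% of each.

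Most control-only acetylated sites lay inside genes and away from gene starts. Within 1 kb of a start were 79 of 1205 (6.56%, 5.29% to 8.10%), another 804 (66.7%) lay in a protein-coding gene and 322 (26.7%) between genes. Control-only regions without acetylation were at a start in 2.36% (2.05% to 2.70%) and between genes in 45.0%. Acetylated regions of all 4 lists were at a start in 58.6%. Acetylated regions of SNA and DCA alone were at a start in 8.00% (6.92% to 9.23%) and those of a control and an axotomy in 7.42% (6.80% to 8.09%), which overlap the interval of the control-only sites.

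The sites also lay near open chromatin that all 4 surgeries shared. The median distance to the nearest region of all 4 lists was 7503 bp for control-only acetylated sites and 16597.5 bp for control-only regions without acetylation. It was 8675 bp for acetylated regions of SNA and DCA alone and 8086.5 bp for those of a control and an axotomy. Of the control-only sites, 21.6% had such a region within 2 kb (19.3% to 24.0%), against 17.9% (16.3% to 19.6%) of the acetylated regions of SNA and DCA alone and 20.2% (19.2% to 21.2%) of those of a control and an axotomy. Members are not fully independent of each other, since 53 pairs of neighbouring sites were under 10 kb apart and 8 of these under 1 kb.

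**Figure D3:**
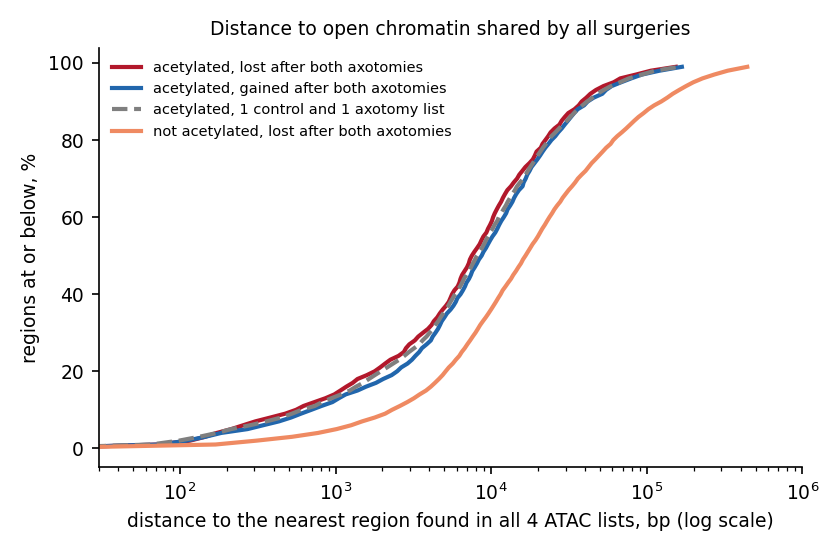
Cumulative share of regions (%) by distance (bp, log axis) to the nearest region found in all 4 ATAC lists. The 3 acetylated groups run close together, with medians of 7503 bp (lost after both axotomies), 8675 bp (gained) and 8086.5 bp (1 control and 1 axotomy list), and the control-only regions without acetylation lie farther away, at 16597.5 bp.

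Most of these sites had an acetylation peak of some kind in an axotomy list, which need not be the mark or the surgery pair that chose them. An H3K9ac peak was present at 615 of the 1205 sites in Sham, 504 in Lam, 732 in SNA and 794 in DCA. An H3K27ac peak was present at 444 in Sham, 752 in Lam, 621 in SNA and 383 in DCA. H3K9ac was thus listed at more sites after either axotomy than after its control, and H3K27ac at more sites after SNA and at fewer after DCA. The whole H3K9ac lists were also longer after axotomy, with 74652 and 89647 peaks in SNA and DCA against 50332 and 50667 in Sham and Lam, and the H3K27ac lists moved in the same directions as the sites, from 43803 in Sham to 75824 in SNA and from 67311 in Lam to 46489 in DCA. Over all merged ATAC regions the share with H3K9ac was 8.73% in Sham and 11.6% in SNA, and 7.74% in Lam and 14.1% in DCA. The share with H3K27ac was 6.72% in Sham and 10.1% in SNA, and 10.1% in Lam and 6.72% in DCA. Acetylated regions open in SNA and DCA alone had H3K9ac in 52.4% in Sham, 42.5% in Lam, 58.9% in SNA and 64.8% in DCA, against 51.0%, 41.8%, 60.7% and 65.9% of the control-only sites, and H3K27ac in 38.7%, 61.7%, 50.7% and 31.8%, against 36.8%, 62.4%, 51.5% and 31.8%. Regions of the opposite ATAC pattern thus moved in the same directions between the lists. The median −log10 p of H3K9ac at the sites was 4.19 in Sham and 4.84 in Lam, against 4.19 and 5.19 over the whole lists. A −log10 q of at least 5 was reached by H3K9ac at 9 sites in Sham and 36 in Lam. For H3K27ac it was reached at 221 and 391. An acetylation peak of either mark, whether or not it was the mark listed in the control, was present in at least 1 axotomy list at 1014 sites (84.1%, 82.0% to 86.1%), and 603 (50.0%) had H3K9ac in both axotomy lists. The share with H3K9ac in both axotomy lists was not computed for other regions.

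The other 191 sites (15.9%, 13.9% to 18%) had no acetylation peak in either axotomy list. That share was 16.5% (15.0% to 18.1%) for acetylated regions open in SNA and DCA alone and 16.1% (15.2% to 17.0%) for those of a control and an axotomy. It was 3.85% for acetylated regions of all 4 lists. The intervals of the control-only sites and of the other pairs of lists overlap.

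Each mark was then followed from a control to its matched axotomy, and read against the same share over all merged ATAC regions that had the mark. Of control-only sites with H3K9ac in Sham, 20.3% (17.3% to 23.7%) had none in SNA, with a background of 16.8%. Of those with H3K9ac in Lam, 20.6% (17.3% to 24.4%) had none in DCA, with a background of 11.6%. Of those with H3K27ac in Sham, 35.6% (31.3% to 40.1%) had none in SNA, with a background of 25.2%, and of those with H3K27ac in Lam, 58.6% (55.1% to 62.1%) had none in DCA, with a background of 46.3%. All 4 shares were above the background, and so were those of the other acetylated regions found in 2 ATAC lists. The shares depended on list length: with the lists of a mark shortened to equal size they were 33.3%, 38.6%, 48.6% and 49.9% in the same order.

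Differences from the acetylated regions open in SNA and DCA alone were small, with intervals that held 0. They were -2.30 percentage points (-6.23 to 1.81, Newcombe interval) for H3K9ac from Sham to SNA, -0.94 (-5.27 to 3.60) for H3K9ac from Lam to DCA, -3.54 (-9.02 to 2.08) for H3K27ac from Sham to SNA and 1.71 (-2.73 to 6.10) for H3K27ac from Lam to DCA. From acetylated regions of all 4 lists the differences were 9.72 points (6.69 to 13.1), 17.5 (14.2 to 21.3), 26.1 (21.8 to 30.7) and 30.9 (27.3 to 34.5) in the same order. These intervals cover counting error only, and overlapping or neighbouring regions can share a peak.

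The controls also differed from each other. Of the sites with H3K9ac in Sham, 50.1% had none in Lam (background 35.8%), and of those with it in Lam, 39.1% had none in Sham (background 27.6%). For H3K27ac the shares were 28.8% from Sham to Lam (background 20.2%) and 58.0% from Lam to Sham (background 47.1%). For H3K9ac these shares were larger than those missing after the matched axotomy, whose lists were longer. The shares between the controls were not recomputed with lists of equal size. For H3K27ac from Sham the share missing from Lam was the smaller, 28.8% against 35.6% missing from SNA.

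**Figure D4:**
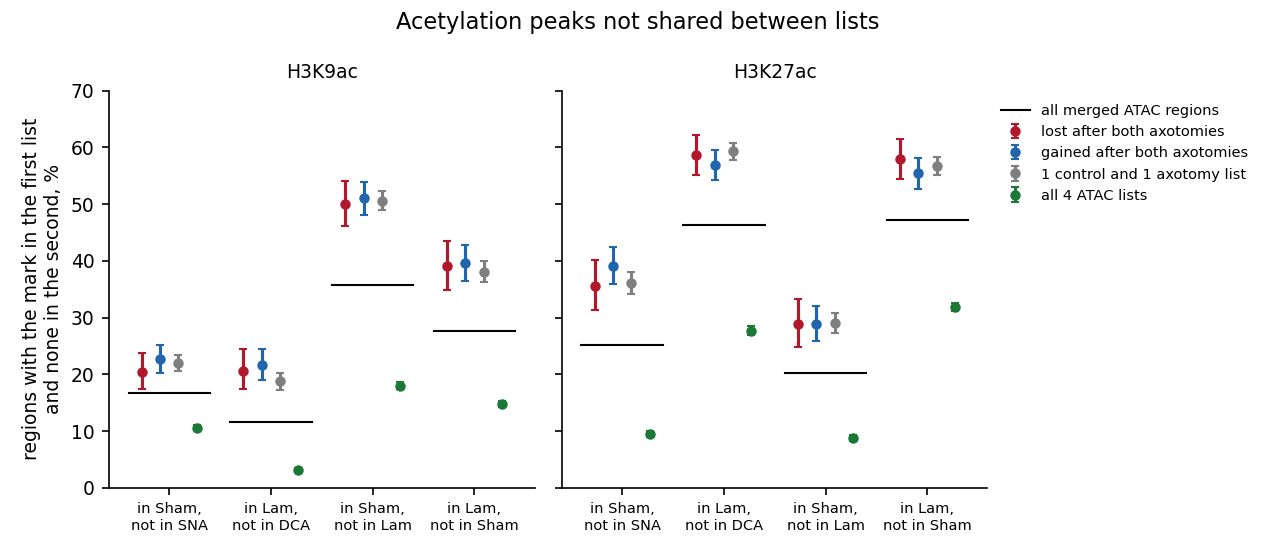
Share of regions (%) with a mark in the first list and no peak of it in the second, for H3K9ac (left) and H3K27ac (right), with 95% Wilson intervals and black lines for all merged ATAC regions. The control-only sites (red) lie with the regions gained after both axotomies (blue) and those of 1 control and 1 axotomy list (grey), and above the regions of all 4 lists (green), in each of the 4 comparisons.

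The share of sites without the mark in another list was lower in the strongest class of control peaks than in the weakest, between the controls too, except for H3K27ac from Sham to SNA. Sites with a mark were split at the 25th, 50th and 75th percentile of the −log10 p of that peak, with ties kept together. In the weakest class 34.3% of 236 sites with H3K9ac in Sham had none in SNA, and in the strongest 5.19% of 154. From Lam to DCA the shares were 32.5% of 126 and 4.76% of 126. H3K27ac from Lam to DCA went from 80.4% of 219 in the weakest class to 24.5% of 188 in the strongest. Between the controls the shares ran from 66.1% to 25.3% for H3K9ac from Sham to Lam, from 46.0% to 15.1% for H3K9ac from Lam to Sham, and from 77.2% to 25.5% for H3K27ac from Lam to Sham. For H3K27ac from Sham to Lam they ran from 39.6% to 23.4%.

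H3K27ac from Sham to SNA was the exception. The shares with no SNA peak were 34.2%, 33.3%, 23.4% and 51.4% from the weakest to the strongest class of 111 sites each. In the strongest class, 57 sites had no SNA peak, and 1 of these 57 had H3K9ac in Sham (1.75%, 0.310% to 9.29%), against 40 of the 54 that kept it (74.1%, 61.1% to 83.9%). Of the 57, 36 had H3K27ac in Lam (63.2%) and 37 in DCA (64.9%), against 49 (90.7%) and 44 (81.5%) of the 54. The differences were not tested. At the same strength, 57.2% of 222 acetylated regions open in SNA and DCA alone lacked H3K27ac in SNA (50.6% to 63.5%) and 55.4% of 608 of those in a control and an axotomy (51.5% to 59.3%), against 8.55% of 3800 of those in all 4 lists. Sites with strong H3K27ac in Sham, no H3K9ac there and no H3K27ac in SNA were therefore found among other weakly open regions too.

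Of the 10 sites with the strongest H3K27ac in Sham, 3 had no H3K27ac peak in SNA, 3 had none in DCA and 1 had none in Lam. The sites named next were chosen after their values were seen. At Ahnak2, a gene for a large scaffold protein, the fold enrichment was 30.3 in Sham, against 24.8 in Lam and 28.8 in DCA, and it was 2.97 in SNA. H3K9ac was listed there in SNA and DCA alone, and the ATAC summits had 58 reads in Sham and 67 in Lam. At Lats2, which encodes a kinase of the Hippo pathway, the fold was 17.1 in Sham, 13.9 in Lam and 14.8 in DCA with no peak in SNA, and the ATAC summits had 29 and 39 reads. Other sites did not follow that pattern. At a site 479 bp from Tgfbr2, a receptor gene of TGF-beta signalling, the fold was 15.9 in Sham, 8.34 in Lam, 8.88 in SNA and 15.9 in DCA. In Dyrk1a, a kinase gene, the fold was 17.7 in Sham and 3.75 in SNA, with no peak in Lam or DCA. In Adamts9, a metalloprotease gene, it was 15.8 in Sham, 4.71 in Lam and 4.22 in SNA, with none in DCA. Of the 10, 3 had H3K9ac in Sham, and 2, both in Sorcs2, lay under the same Sham H3K27ac peak. Fold enrichment is relative to each list's own background, so folds of different lists are set side by side without a test.

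Sites that had ATAC and an acetylation mark in both controls and neither in an axotomy list were few. There were 15 (1.24% of 1205, 0.756% to 2.04%), a share that was not computed for other regions. Of these, 11 had H3K27ac and 4 H3K9ac in both controls, and 1 lay within 1 kb of a gene start. That site covers the start of Pfkm (chr15:98111752-98112228), with ATAC summits of 38 reads in Sham and 44 in Lam and H3K27ac folds of 13.2 in Sham and 6.84 in Lam. The nearest axotomy ATAC peaks were 2813 bp away in SNA and 2760 bp away in DCA.

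The other 7 named by this rule had weaker marks. In Ankrd11, which encodes a chromatin regulator, the site (chr8:122883762-122884595) had 36 and 46 ATAC reads and H3K27ac folds of 8.95 in Sham and 6.01 in Lam. A site 2450 bp from Atpsckmt, a methyltransferase gene, had folds of 6.92 and 6.38, and a site in Nfkb1, which encodes a subunit of NF-kappaB, had 4.28 and 3.54 with 32 and 29 reads. In Gas7, a growth arrest gene expressed in neurons, the H3K27ac folds were 3.54 and 3.68, and an SNA ATAC peak lay 100 bp away. The remaining 3 lay between genes, at 84448 bp from the proliferation marker gene Mki67, 70899 bp from Smad6 and 47734 bp from Nfat5, with Sham folds of 6.14, 5.92 and 5.11. None of these 8 sites had an H3K9ac peak in any of the 4 lists.

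At the other end, 145 sites (12%) had both marks in both controls and 97 (8.05%) had a peak in all 8 acetylation lists. Neither share was computed for other regions. Of the 145, the strongest by the weakest control peak was in Kmt2e (chr5:23435242-23435573), which encodes a protein of the family of histone methyltransferases. Its H3K9ac folds were 5.61 in Sham, 5.13 in Lam, 5.74 in SNA and 6.28 in DCA, and its H3K27ac folds were 4.55, 7.01, 8.66 and 6.21. The marks did not drop out with the ATAC peak there, and axotomy ATAC peaks lay 57 bp away in SNA and 34 bp away in DCA. A region found in all 4 ATAC lists also lay 34 bp away, and which of the regions the marks belong to was not tested.

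In Bcl2l1, the gene of the survival protein Bcl-xL, the site (chr2:152821103-152821634) had 34 and 42 ATAC reads and peaks of both marks in all 4 surgeries, with H3K27ac folds of 4.21 in Sham, 5.18 in Lam, 4.77 in SNA and 4.37 in DCA. An SNA ATAC peak and a region found in all 4 ATAC lists lay 61 bp away. In Agpat3, an enzyme of phospholipid synthesis, H3K9ac went from a fold of 6.32 in Sham to 5.95 in SNA and from 4.69 in Lam to 2.70 in DCA. A region found in all 4 ATAC lists lay 154 bp from the Agpat3 site. Sites in Capn5, a calpain protease gene, and Afap1, which encodes an actin-binding protein, also had all 8 peaks. So did sites near the helicase gene Dhx37 and near C87436. The eighth, 9721 bp from the helicase gene Blm, had 7 of the 8 and lacked H3K27ac in DCA.

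The sites with the strongest ATAC in both controls were at genes of several kinds, and their acetylation differed from site to site. The strongest, in Prkaca (chr8:83980203-83980588), the gene of a catalytic subunit of protein kinase A, had 69 reads in Sham over a local background of 23.7 and 62 in Lam over 24.9. It had H3K9ac in Sham and in DCA, with folds of 3.50 and 3.07, and no H3K27ac, and an SNA ATAC peak lay 267 bp away. The site over the start of Calcrl (chr2:84425125-84425604) had 46 and 48 reads, the nearest axotomy ATAC peak being 23798 bp away. It had H3K9ac in Sham (4.02) and SNA (3.57) and no H3K27ac, and was listed for H3K27me3 in Sham, Lam and DCA with folds of 1.82, 1.40 and 1.10.

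The site over the start of Fam174c, next to Cirbp, the gene of a cold-inducible RNA-binding protein, had 76 and 89 reads. It had H3K27ac in all 4 lists, with folds of 4.94 in Sham, 5.67 in Lam, 6.12 in SNA and 3.51 in DCA. The site over the start of Agrn (chr4:156185388-156186497) had 56 and 59 reads and peaks of both marks after every surgery. Its nearest axotomy ATAC peaks were 7382 bp away in SNA and 8565 bp away in DCA, so the marks were listed in those surgeries over a start with no ATAC peak near.

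The other 3 described here lay inside genes. A site in the folate enzyme gene Mthfd1 had 46 and 49 reads, with H3K27ac in Lam and DCA. The site in Fstl1, which encodes a secreted glycoprotein, had 44 and 52 reads and H3K9ac in Sham alone. Tln2, the gene of talin 2, which links integrins to actin, had a site with 46 and 44 reads, H3K27ac in Sham and H3K9ac in SNA. Of these 7 sites, acetylation in an axotomy list was present at all but the site in Fstl1.

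**Figure D5:**
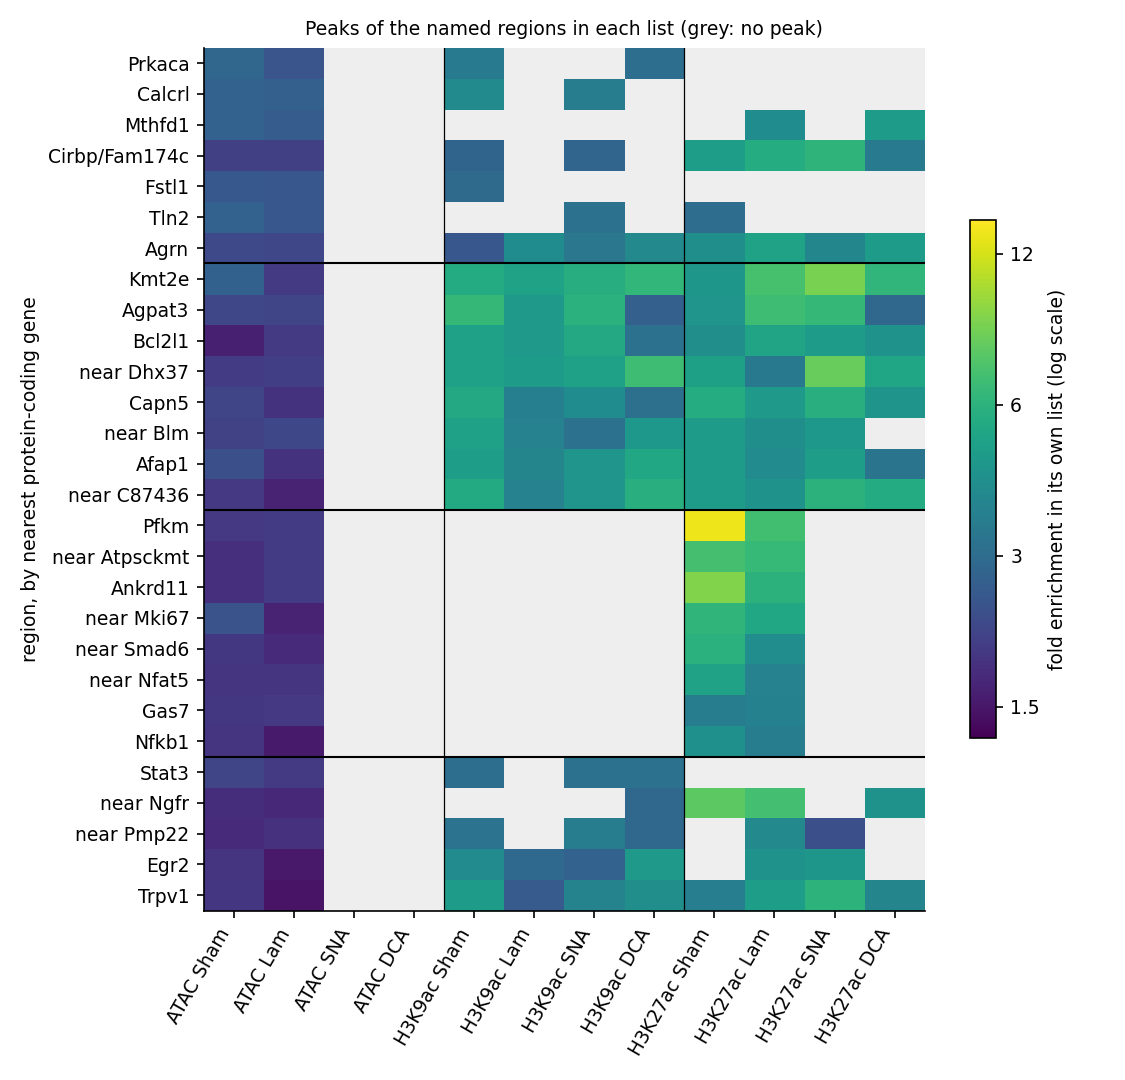
Fold enrichment (log colour scale) of each named site in the 4 ATAC, 4 H3K9ac and 4 H3K27ac lists, grey where no peak was listed. From top to bottom the blocks hold 7 of the 8 strongest by ATAC, the 8 with both marks in both controls, the 8 with a mark in both controls and none after axotomy, and the 5 at genes of the lists.

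Near genes usually examined after nerve injury, control-only sites were counted among the acetylated open regions. Within 10 kb of 40 regeneration-associated genes there were 138 acetylated open regions, of which 2 were control-only (1.45%, 0.398% to 5.13%). Near 20 sensory neuron genes it was 1 of 63 (1.59%) and near 20 genes of satellite glia and Schwann cells 2 of 115 (1.74%). There were none among 26 regions near macrophage genes, 29 near vascular and fibroblast genes and 2 near muscle genes. Each interval held the 2.25% of all acetylated open regions, and a count of 0 of 26 has an upper bound of 12.9%.

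The site in Stat3, the transcription factor of gp130 cytokine signalling, had 57 reads in Sham and 58 in Lam. It had H3K9ac in Sham, SNA and DCA, with folds of 3.08, 3.18 and 3.17. A site 1039 bp from Ngfr, which encodes the p75 neurotrophin receptor, had 42 and 43 reads, with H3K27ac folds of 7.67 in Sham, 6.90 in Lam and 4.36 in DCA and none in SNA. The site in Trpv1, the capsaicin receptor gene of nociceptors, had 48 and 38 reads and peaks of both marks in all 8 lists, with H3K27ac folds of 3.60 in Sham and 6.02 in SNA.

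At the glial genes the site in Egr2, which encodes a factor of myelination, had 45 and 37 reads, and H3K9ac was listed after all 4 surgeries. An SNA ATAC peak lay 266 bp from it. A site 4549 bp from Pmp22, a myelin protein gene, had 30 and 35 reads and H3K9ac in Sham, SNA and DCA. All of these 5 sites had an acetylation peak in at least 1 axotomy list.

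There were 771 protein-coding genes with a site inside, and their median length was 89.4 kb. For the acetylated regions of the other 5 pairs of ATAC lists, 1307 to 2125 in number, the host genes had medians of 71.9 to 84.0 kb. The sets differ in the number of regions and no test of the lengths was made. Bach2, a transcriptional repressor, Ctdspl, a phosphatase, Prkca, the gene of protein kinase C alpha, and Zbtb20, a zinc finger factor, held 5 sites each, among 54, 25, 59 and 32 acetylated open regions. Prdm16, Rbms1 and Tjp1, a tight junction gene, held 4 each among 92, 38 and 27. The 13 genes with 3 sites were Abr, Actn4, Agap1, Arid1b, Arl15, Gsn, Lhpp, Macrod1, Msi2, Sdk1, Tead1, Vav2 and Zmiz1. They held from 14 (Gsn) to 78 (Msi2) acetylated open regions, and 2.25% of all acetylated open regions were control-only. The 20 genes with at least 3 sites had a median length of 229.6 kb.

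Promoters make up a small part of the set, and their sequences are the ones at hand. Sites overlapped the window from 250 bases before to 50 after the start for 27 genes, in 28 windows of 21262, and covered 13 of these whole. H3K9ac was listed at 17 of the 27 genes in Sham, 16 in Lam, 22 in SNA and 20 in DCA, and H3K27ac at 15, 21, 17 and 14. The 7 genes with a peak in all 8 acetylation lists were Aatk, Agrn, Art4, C2cd4d, Hoxa6, Ino80b and Tmem268. How often other promoters had all 8 was not counted. At Aatk the site had 73 ATAC reads in Sham and 100 in Lam. At Gsn it had 38 and 43, with H3K9ac after all 4 surgeries and H3K27ac after all but Sham. Pfkm alone among the 27 had H3K27ac in both controls and no acetylation peak after either axotomy.

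These windows had a median of 54.3% G and C and 7 CpG in 300 bases, against 56.3% and 13 CpG over all windows. Motifs were searched on both strands, and a GC box and a CTCF core can share bases. The search took whole windows, so matches in bases outside a site were counted too. Tmem106a had overlapping windows, so its GC box and ETS matches were counted in each, and the intervals take windows as independent. The AP-1 motif TGANTCA was in 0 of 28 windows (upper bound 12.1%) and in 6.99% of all windows, and the CRE motif TGACGTCA in 0 of 28 and in 2.23%. The GC box GGGCGG was in 11 (39.3%, against 46.2% of all), the ETS motif CCGGAAG in 3 (10.7%, 11.6%) and the CCAAT box CCAAT in 7 (25%, 38.2%). The E-box CACGTG was in 2 (7.14%, 7.84%), the SOX motif ATTGTT in 5 (17.9%, 9.05%) and the CTCF core AGGGGGC in 4 (14.3%, 12.9%). For all 8 motifs the 95% interval over 28 windows held the share of all windows, and a match is a run of letters, not a bound site.

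A microRNA hairpin lay in 1 control-only site. Mir199a-1 lies on the minus strand at chr9:21496495-21496564, inside Dnm2, the gene of dynamin 2. The site had 41 ATAC reads in Sham and 49 in Lam and H3K27ac in Sham alone, with an SNA ATAC peak 340 bp away and a DCA peak 1850 bp away. Its mature products from RefSeq follow, shown because they name the RNA whose hairpin the site covers, with the seed (bases 2 to 8) in capitals.
mmu-miR-199a-5p: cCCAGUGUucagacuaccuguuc
mmu-miR-199a-3p: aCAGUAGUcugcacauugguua
The lists measure chromatin and hold no level of the microRNA, and the arms have different seeds.

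H3K27me3 was rare at these sites. It was listed at 78 in Sham (6.47%), 118 in Lam (9.79%), 38 in SNA (3.15%) and 14 in DCA (1.16%), against 16%, 23.1%, 14.2% and 6.50% of all merged ATAC regions. Of the 1205 sites, 207 had it in any list and 157 had it in a control and in no axotomy list. These counts were not made for other regions. Acetylated regions of SNA and DCA alone had it in 6.78%, 10.8%, 4.0% and 1.08%, in the same order. Where H3K27me3 was listed its fold was low, with medians at the sites of 1.08 in Sham, 1.22 in Lam, 1.13 in SNA and 1.11 in DCA. The authors' −log10 p was low too, with medians of 0.863, 0.796, 0.770 and 0.693 in the same order. The H3K27me3 list was longer in SNA than in Sham (141635 against 122953 peaks) and shorter in DCA than in Lam (90011 against 154055). The control-only sites thus had H3K27me3 less often in each axotomy list than in its control, as did the acetylated regions that were open after axotomy alone.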

How the data were processed

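Chromatin of mouse dorsal root ganglia was profiled by ATAC-seq and by ChIP-seq for H3K9ac, H3K27ac and H3K27me3 after 4 surgeries, and per the labels the authors pooled the replicates of each condition into 1 deposited peak list, 16 in all. Which aligner and caller were run, with what settings, and why ranks are missing, is not given in the sources used here. The build was mm10, per the submitters' processing notes. Each deposited list gives, per peak, the authors' fold enrichment (a linear ratio over the caller's background) and the authors' −log10 p and −log10 q. These are the authors' own values and were used within a list only.

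Of ATAC intervals listed once per summit, only the summit of highest −log10 p was kept. Lists were merged and overlaps counted from 1 bp. Summit reads k were recovered from fold = (k + 1)/(b + 1), with b the local background, and from the Poisson tail p. A single whole number of reads matched within 0.003 for 100% of the control-only sites. Gene starts came from RefSeq GRCm38.p6 for 17491 of 21883 protein-coding genes. For the other 4392 both gene ends were used, and exons and introns were not assigned. Shares have Wilson 95% intervals and differences have Newcombe intervals. Nothing was tested between conditions, since replicates were pooled.

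The sites, the gene lists and the rules were chosen with earlier results of these data known. Sites named in the text were the 8 with the highest lower ATAC −log10 p over both controls, the 8 with both marks in both controls by the lowest of the 4 −log10 p, the 8 with a mark in both controls and none after axotomy by the lower −log10 p, those in or within 10 kb of a listed gene, and genes with 3 or more sites. A site of the first group is not reported here. Calculations used Python 3.11.15, numpy 2.4.6, pandas 2.3.3, scipy 1.17.1 and matplotlib 3.10.9, and the overlap and read recovery steps were tested on simulated data. Alternatives changed the q minimum, list lengths, overlap, window and distance to axotomy peaks.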

Additional observations from a re-analysis of the deposited data

Results flagged for a closer look

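The number of control-only sites with an H3K27ac peak moved in opposite directions after the axotomies. It was higher by 177 in SNA than in Sham (621 against 444) and fell by 369 from Lam to DCA (752 to 383). The H3K27ac lists as a whole moved the same way, from 43803 to 75824 peaks and from 67311 to 46489, and so did the share of all merged ATAC regions with H3K27ac, from 6.72% to 10.1% and from 10.1% to 6.72%. Acetylated regions open in SNA and DCA alone went from 823 to 1078 and from 1312 to 675 of 2125, so the opposite directions were not limited to the control-only sites. With 1 pooled list per surgery the difference was not tested, and the part of list length in it was not tested either. The controls also differed from each other, with 444 sites in Sham and 752 in Lam.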

How the results depend on the processing

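The number of control-only acetylated sites rested on weak ATAC peaks. It was 1205 as reported, 6 when both control ATAC peaks needed a −log10 q of at least 5, 123 when all ATAC peaks did, 611 without sites within 1 kb of an axotomy peak, and 472 when acetylation peaks needed that q. It stayed within 1.5 times with ATAC lists of equal size (1362) and with acetylation over at least 50% of the site (836). With a −log10 q of at least 5 for all ATAC peaks the control-only regions numbered 384, acetylated or not, against 2584 in SNA and DCA alone and 656 to 1360 in a control and an axotomy. Axotomy peaks below that q were left out under this setting, so regions with a weaker listed axotomy peak could count as control-only.

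The share at a gene start (6.56%) was 17.9% with a 5 kb window, 33.3% for the 6 sites with a −log10 q of at least 5 and 3.44% for the 611 without a near axotomy peak. In the same order (H3K9ac from Sham to SNA, H3K9ac from Lam to DCA, H3K27ac from Sham to SNA, H3K27ac from Lam to DCA), the shares without the mark after axotomy, 20.3%, 20.6%, 35.6% and 58.6%, became 33.3%, 38.6%, 48.6% and 49.9% with acetylation lists of equal size, and 11.1% of 9, 2.78% of 36, 57.5% of 221 and 67.5% of 391 with an acetylation −log10 q of at least 5. With lists of equal size the regions of SNA and DCA alone gave 34.3%, 38.6%, 53.8% and 49.0%. With acetylation over at least 50% of the site, H3K9ac from Lam to DCA became 17.2% and H3K27ac from Lam to DCA 68.0%. Without sites near an axotomy peak, an alternative chosen after seeing the data, H3K27ac from Lam to DCA became 66.0%. Among the 6 sites of high ATAC q, H3K9ac from Sham to SNA was 50.0% of 4, H3K27ac from Sham to SNA 50.0% of 2 and H3K27ac from Lam to DCA 0 of 2, and H3K9ac from Lam to DCA had no site to give a value. The H3K27me3 shares in Sham, Lam and SNA (6.47%, 9.79% and 3.15%) became 3.57%, 6.56% and 1.74% when peaks covered at least 50% of a site and 4.48%, 6.31% and 1.99% with lists of equal size. The cause was not tested.

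No paired analysis was possible because the deposited lists pool the replicates of each condition. For the same reason no replicate was left out, and depth per sample is unknown. Intervals cover counting error only. The lists keep only part of their ranks, and 6 of the 1205 sites passed the stricter q in both controls.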
